A study of Rattus norvegicus with 2 samples.

Results

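Genes of Wnt signalling were followed in newborn rat epidermal keratinocytes (NRK cells), cells of the outer skin layer grown in medium with hydrocortisone and 10% serum. The list holds 47 genes, fixed by name as ligands, receptors and regulators of the pathway. A gene was included where the platform annotation gave exactly 1 symbol to a probe set, and the brightest such probe set stood for it. This left 46 of the 47 genes, of 22093 named genes in all, and Fzd7 was skipped. The series compared cells without added retinoid with cells that received all-trans retinoic acid (RA), a vitamin A metabolite dissolved in dimethyl sulfoxide, at 5 µM, and both were taken at day 5 with medium renewed every 24 h. The array without RA was taken as the vehicle control because RA and vehicle are the only treatments described, although its title names no vehicle. The labels give no strain, and they do not say how many newborns or cultures an array stands for. Each group holds 1 array, so no value has a replicate error, no test was possible, and every difference is between these arrays rather than between conditions, since array and treatment cannot be told apart.

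Wnt proteins are secreted lipid-modified ligands that bind Frizzled receptors together with the coreceptors Lrp5 and Lrp6. In the canonical branch this stops a destruction complex of Axin, Apc and Gsk3b from marking beta-catenin for degradation, and beta-catenin then acts with Tcf and Lef factors on target genes. In skin the pathway is known for hair follicle formation and for the upkeep of epidermal stem cells. R-spondins, bound by Lgr4, Lgr5 or Lgr6, keep the ubiquitin ligases Znrf3 and Rnf43 from removing Frizzled receptors.

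The R-spondin receptor gene Lgr4 was the Wnt gene that differed most, with a log2 signal of 12.10 without RA and 8.30 with RA. Only 4 other measured members differed by at least 1 log2 unit, which is 2-fold on the deposited scale. Wnt10a was higher with RA, and Fzd6, Fzd1 and Wnt16 were lower. The 1 higher gene made up 2.17% of the 46, beside 5.09% of all 22093 genes, and the 4 lower genes 8.70%, beside 3.64%. Among genes whose mean of both arrays reached 3.81, the median of all values, the same counts were found in 30 members, beside 8.18% of genes higher and 5.85% lower. The median difference of the 46, RA minus without RA, was -0.026, and that of all genes was also -0.026. Of the 46, 34 (73.9%) lay within 0.5 log2 units of 0, compared with 79.7% of all genes.

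**Figure D1:**
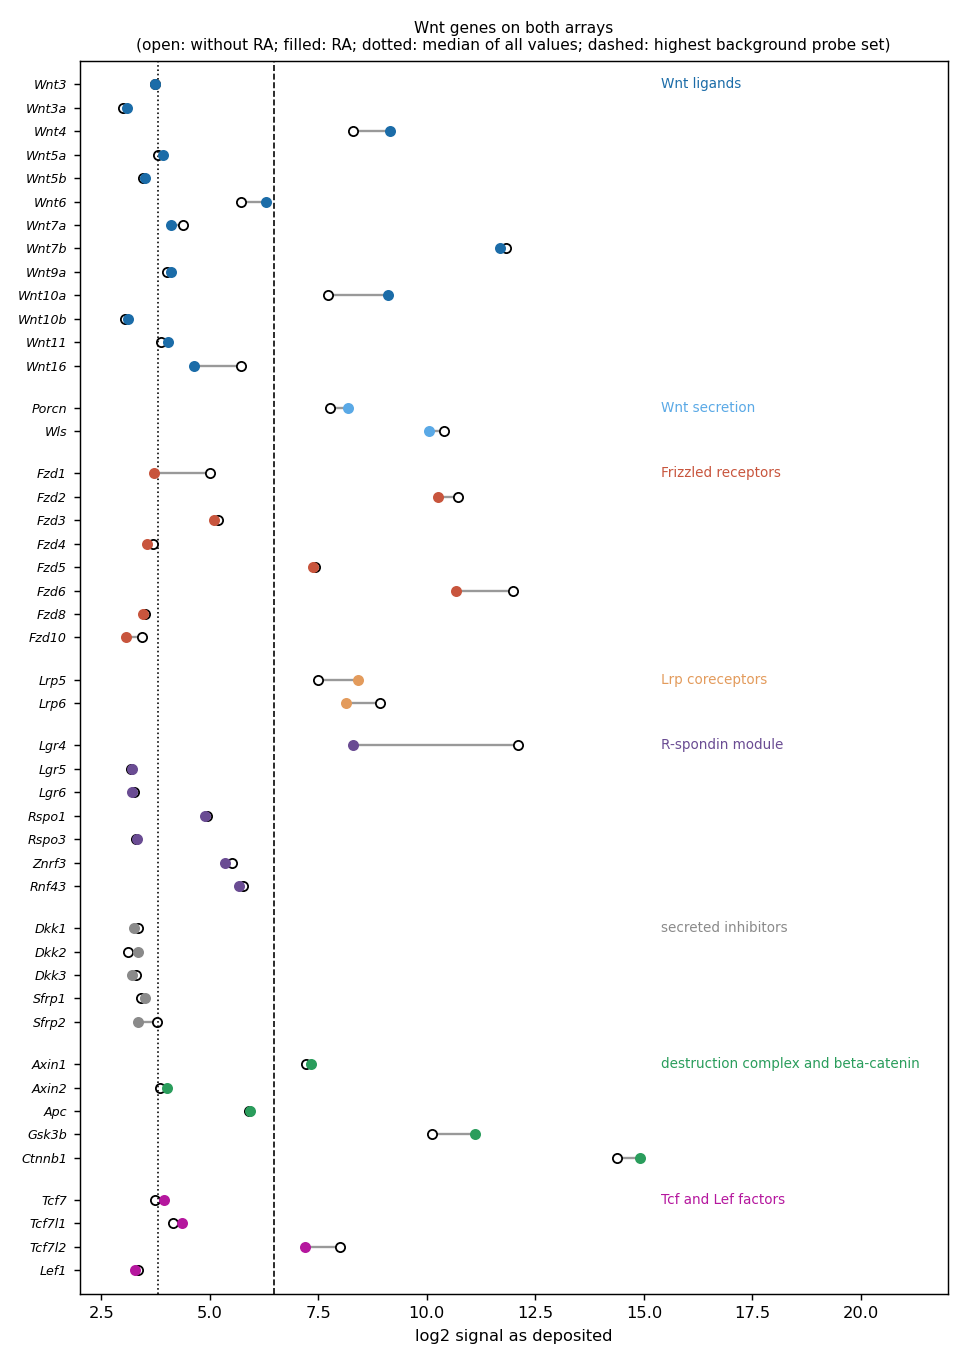
Log2 signal of the 46 measured Wnt genes, 1 line per gene, with open points for the array without RA and filled points for the array with RA, ordered by role. The dotted line is the median of all values (3.81) and the dashed line the brightest background probe set (6.47), and 15 genes lie right of the dashed line on both arrays.

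Promoter sequences are shown for the most changed gene (Lgr4), for the higher ligand gene and its chromosomal neighbour (Wnt10a and Wnt6), for the lower ligand gene (Wnt16) and for the classical feedback target Axin2. Each is the stretch of 250 bases before the gene's start, 5′ to 3′, from RefSeq on build GRCr8, with all of these genes on the plus strand. Lgr4 lies at chr3:116901718-116901967, Wnt10a at chr9:83798344-83798593, Wnt6 at chr9:83778302-83778551, Wnt16 at chr4:51786478-51786727 and Axin2 at chr10:94398535-94398784. Capitals mark a match to either of the motifs searched on both strands, AGGTCA (the core motif of RA receptor sites, reverse TGACCT) and CTTTGAT (a Tcf and Lef motif, reverse ATCAAAG).
Lgr4: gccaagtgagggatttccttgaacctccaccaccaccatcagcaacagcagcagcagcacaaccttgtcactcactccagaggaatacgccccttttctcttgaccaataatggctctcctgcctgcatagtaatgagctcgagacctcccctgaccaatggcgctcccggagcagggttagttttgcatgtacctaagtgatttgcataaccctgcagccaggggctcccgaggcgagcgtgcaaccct
Wnt10a: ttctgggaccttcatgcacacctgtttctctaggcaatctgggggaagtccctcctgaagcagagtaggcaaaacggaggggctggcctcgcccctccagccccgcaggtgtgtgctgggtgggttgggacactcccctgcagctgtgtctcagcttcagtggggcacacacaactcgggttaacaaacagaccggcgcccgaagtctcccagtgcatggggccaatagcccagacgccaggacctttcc
Wnt6: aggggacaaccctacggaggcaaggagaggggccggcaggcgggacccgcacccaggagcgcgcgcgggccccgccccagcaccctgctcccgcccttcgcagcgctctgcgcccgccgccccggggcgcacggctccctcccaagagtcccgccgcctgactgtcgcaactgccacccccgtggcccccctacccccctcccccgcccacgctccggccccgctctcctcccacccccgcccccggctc
Wnt16: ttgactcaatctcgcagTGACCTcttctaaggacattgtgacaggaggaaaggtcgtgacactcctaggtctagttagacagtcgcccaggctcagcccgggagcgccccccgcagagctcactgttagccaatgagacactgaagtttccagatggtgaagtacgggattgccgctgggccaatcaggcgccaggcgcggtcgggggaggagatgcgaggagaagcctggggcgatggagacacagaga
Axin2: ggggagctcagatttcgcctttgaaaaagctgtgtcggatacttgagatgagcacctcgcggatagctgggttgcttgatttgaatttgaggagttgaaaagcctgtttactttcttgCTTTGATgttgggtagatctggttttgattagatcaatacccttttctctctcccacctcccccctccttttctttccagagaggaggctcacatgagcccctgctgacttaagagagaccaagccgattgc

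A promoter was found for 32 of the 46 genes. The motif AGGTCA stood in 2 of them, Wnt16 and Rnf43, and in 14.1% of all 33469 promoters of this length. In Wnt16 the match is on the reverse strand and begins 233 bases before the start. The motif CTTTGAT stood in 1 of the 32, Axin2, 132 bases before its start, and in 3.15% of all promoters. The Lgr4, Wnt10a and Wnt6 windows hold neither. A match or its absence describes letters in a short window only.

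Control probe sets show what the signals can carry. The 23 probe sets named as background ran from 2.21 to 5.86 without RA and from 2.27 to 6.47 with RA. Above 6.47 on both arrays lay 15 members, while 31 lay at or under it on both, and 16 of those were also under 3.81 on both. A signal in that range may be background. Of all 22093 genes, 6250 lay above 6.47 on both arrays, 14666 lay at or under it on both, and 7819 were under 3.81 on both. None of the background probe sets and none of the 92 ERCC spikes differed by 2-fold. Of 1153 probe sets named as rat negative controls, however, 11.9% were at least 2-fold higher and 15.7% lower, larger shares than among the Wnt genes. These negative controls had medians of 4.57 without RA and 4.47 with RA and reached 18.21 and 18.08, so 6.47 does not bound them. Above or within background refers below to the background probe sets only. No member reached 16, the log2 limit of an unstretched 16-bit scanner image, and the highest value was 14.90 for Ctnnb1. Because the deposited scale runs past 16, this does not show whether a member was saturated. Levels of different genes come from different probes and were not ranked against each other.

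Among the 13 ligand genes, 1 was at least 2-fold higher and 1 lower (7.69% each), beside 5.09% and 3.64% of all genes. Within 0.5 units of 0 lay 9 (69.2%), beside 79.7% of all genes. Wnt10a, a ligand of hair, tooth and palmoplantar skin development, was at 7.71 without RA and 9.10 with RA, a difference of 1.38 units, the 770th largest increase among the 22093 genes. Wnt16 was at 5.73 and 4.64, a difference of -1.09 at signals within the background range. Wnt4, a ligand of kidney and gonad development that epidermis also makes, was at 8.31 and 9.15, higher by 0.84 and short of 2-fold. Thus Wnt10a and Wnt4 stood above the brightest background probe set on both arrays and were both brighter with RA, by unequal amounts. Of the rat negative controls, 92.5% were dimmer than Wnt10a without RA and 96.3% with RA. For Wnt4 these shares were 95.1% and 96.4%.

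Wnt7b, a ligand made by epidermis, was bright on both arrays, at 11.81 and 11.68, and differed by -0.14. Its sign turned under a lowess scaling, to 0.30. Wnt6 was at 5.73 and 6.29, higher by 0.56 and just under the brightest background probe set. Wnt6 and Wnt10a are next to each other on chromosome 9 in the RefSeq table of GRCr8, and both were brighter with RA. The other neighbouring Wnt pairs, Wnt3a with Wnt9a, Wnt9b with Wnt3 and Wnt10b with Wnt1, differed by no more than 0.10 in size, with all their signals near or under 4.

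The remaining ligand genes gave signals of 4.38 or less. Wnt7a was at 4.38 and 4.11 and Wnt9a at 4.02 and 4.10. Wnt11, a ligand of non-canonical signalling, was at 3.88 and 4.03, and Wnt5a, another, at 3.80 and 3.91. Wnt3, Wnt5b, Wnt10b and Wnt3a stayed under 3.81 on both arrays, with 3.75 as their highest value. For these genes a difference could not be told from background.

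Both genes of Wnt secretion gave signal above background, with small differences. Porcn, the acyltransferase that attaches the lipid to Wnt proteins, was at 7.77 and 8.19, higher by 0.42. Wls, the carrier that brings Wnt proteins to the cell surface, was at 10.40 and 10.05, a difference of -0.35.

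Frizzled genes were the role in which all measured members, 8 of 8, were below 0, with differences from -1.31 to -0.046 and a median of -0.25, beside 55.5% of all genes below 0. Of these 8 genes 5 lay within the background range on both arrays. Of the 8 genes 2 were at least 2-fold lower as deposited, beside 3.64% of all genes, and 0 were higher, beside 5.09%. Fzd6, a receptor that orients hair follicles in the mouse, was at 11.98 without RA and 10.67 with RA, a difference of -1.31 that came to -0.92, short of 2-fold, after a lowess scaling. Fzd1 was at 5.01 and 3.71, where the RA signal lay under the median of all values and the difference of -1.30 may be cut short by background. Fzd2, a receptor of both canonical and non-canonical signals, was at 10.72 and 10.25, lower by 0.46.

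The other 5 Frizzled genes stayed within 0.5 units of 0. Fzd5 was at 7.43 and 7.38, above the brightest background probe set and nearly equal. Fzd3, a receptor of axon guidance and planar polarity, was at 5.19 and 5.10. Fzd4, Fzd8 and Fzd10 lay between 3.07 and 3.69. The shared sign of the 8 genes depends on very small values, since Fzd5 and Fzd8 came to 0.0044 and 0.0021 when each array was centred on its median, and Fzd5 to 0.046 after a lowess scaling. The second probe set of Fzd8 differed by -0.087, beside -0.048 for the one used.

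The coreceptor genes differed in opposite directions. Lrp5, known from human disorders of bone mass, was at 7.49 and 8.40, higher by 0.91. Lrp6, its close relative, was at 8.92 and 8.13, a difference of -0.79. Both were above background on both arrays and short of 2-fold as deposited, and Lrp5 came to 1.02 after a lowess scaling.

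In the R-spondin group, Lgr4 was the 1 gene past 2-fold of 7 (14.3%, beside 3.64% of all genes lower). Its difference of -3.80 units, 13.9-fold on the deposited scale, was the 110th largest decrease among 22093 genes, and both signals lay above the brightest background probe set. Lgr5, a stem cell marker of intestine and hair follicle, was at 3.18 and 3.21, and Lgr6, a marker of stem cells above the hair bulge in the mouse, at 3.25 and 3.21. The ligand genes Rspo1 and Rspo3 were at 4.94 and 4.89 and at 3.30 and 3.32. The ubiquitin ligase genes Znrf3 and Rnf43 were at 5.51 and 5.34 and at 5.76 and 5.66. The 6 genes other than Lgr4 were thus within the background range on both arrays.

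**Figure D2:**
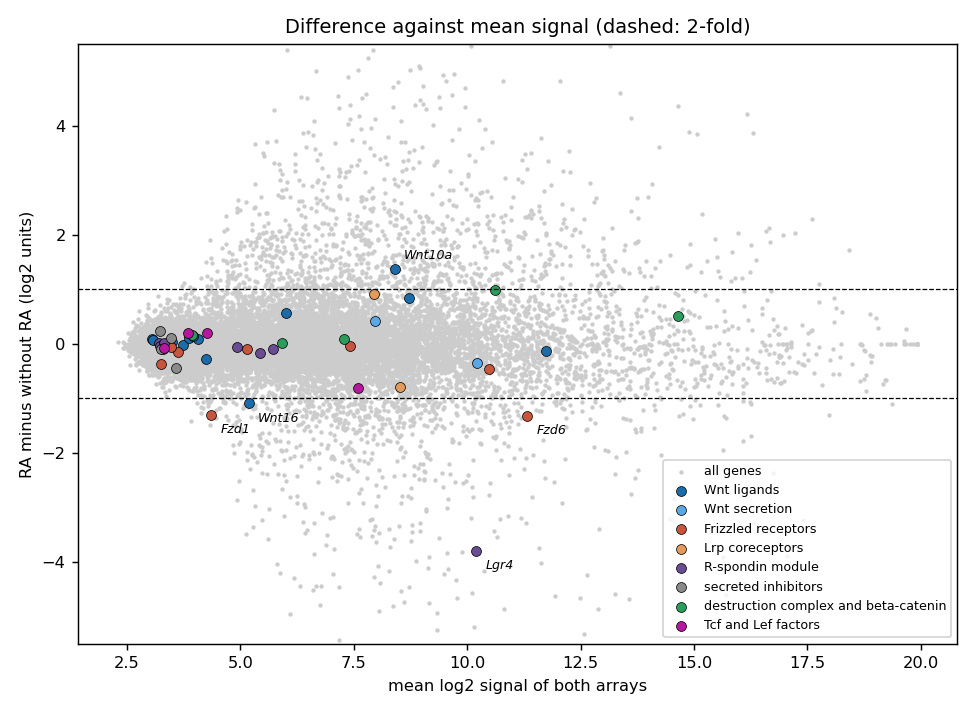
Difference of each gene (RA minus without RA, log2 units) against its mean log2 signal on both arrays, with all 22093 genes in grey and the 46 Wnt genes coloured by role. Dashed lines mark 2-fold, the 5 named Wnt genes lie beyond them, Lgr4 is lowest at -3.80, and 108 grey genes lie outside the axis range of 5.5 units either way.

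Genes of secreted inhibitors gave no signal above 3.81 on either array. Dkk1, Dkk2 and Dkk3 belong to the Dickkopf family, of which Dkk1 blocks Lrp5 and Lrp6, and ranged from 3.10 to 3.35. Sfrp1 and Sfrp2, secreted proteins that resemble the Wnt-binding part of Frizzled, were at 3.41 and 3.51 and at 3.79 and 3.35. None of the 5 differed by 0.5 units.

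Genes of the destruction complex and beta-catenin were all above 0, 5 of 5, beside 44.0% of all genes, and none reached 2-fold in the deposited values. The differences of Axin2 (0.17) and Apc (0.022) are small and lie within the background range. Gsk3b, the kinase that phosphorylates beta-catenin, was at 10.13 without RA and 11.12 with RA, higher by 0.99. It was the member nearest to the 2-fold limit from inside, as Wnt16 was from outside. Ctnnb1, the gene of beta-catenin, which also links cadherins at adherens junctions, was at 14.39 and 14.90, higher by 0.51. Scaling mattered here, since Gsk3b came to 1.29 and Ctnnb1 to 1.20 after lowess, and Ctnnb1 to 1.11 after a further quantile normalization. The scaffold gene Axin1 was at 7.23 and 7.32 and the tumour suppressor gene Apc at 5.90 and 5.93.

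Of the Tcf and Lef genes, Tcf7l2 alone was above background on both arrays, at 8.002 and 7.20, a difference of -0.80. Tcf7l1, a repressor known from skin stem cells of the mouse, was at 4.16 and 4.35. Tcf7 was at 3.74 and 3.94 and Lef1, a factor of the hair matrix, at 3.35 and 3.27.

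**Figure D3:**
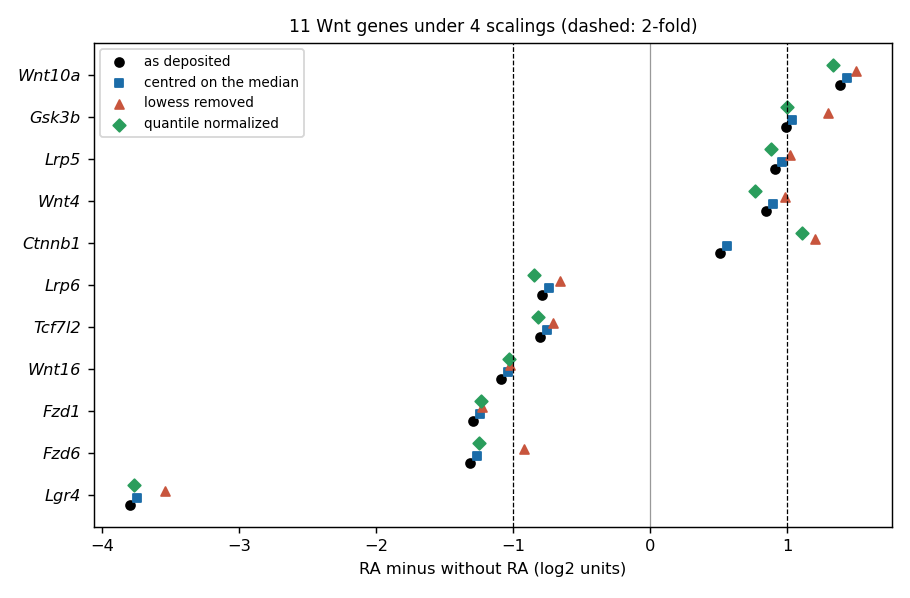
Difference (RA minus without RA, log2 units) of 11 Wnt genes with the values as deposited and under 3 further scalings, 1 marker for each. Dashed lines mark 2-fold, Lgr4 lies between -3.80 and -3.54, and Fzd6 lies inside the limit, at -0.92, after lowess only.

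Known feedback targets of beta-catenin gave little signal. The 10 genes Axin2, Nkd1, Notum, Sp5, Lgr5, Lef1, Tcf7, Dkk1, Znrf3 and Rnf43, picked after the values were seen, all lay within the background range on both arrays, where a difference may not show, and nothing is read from their differences of -0.17 to 0.21. Axin2, an inhibitor that the pathway switches on in many tissues, was at 3.85 and 4.02.

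Other genes of the pathway were counted from lists of Wnt components and of reported beta-catenin targets. Of 159 such genes outside the 47, 153 had a probe set. Among these, the RA array was at least 2-fold brighter for 11 (7.19%) and dimmer for 6 (3.92%), beside the 5.09% and 3.64% of all genes, and their median was -0.0088. The other ligands and receptors (16 measured) and extracellular regulators (20 measured) held 0 genes of 2-fold difference in either direction. However, 14 of the 16 and 19 of the 20 lay within the background range on both arrays, where a difference may not show.

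Among cytoplasmic regulators 2 of 32 were at least 2-fold higher (6.25%) and 0 lower, beside 5.09% and 3.64% of all genes. Cdk14, a kinase that phosphorylates Lrp6 with cyclin Y, was at 6.36 and 8.99, the value without RA being within the background range. Csnk1e, a casein kinase of the pathway, was at 6.86 and 8.70. Among 24 nuclear partners, Tle5, a short member of the Groucho family of corepressors, was higher, at 11.00 and 12.67. Tbl1xr1, a beta-catenin cofactor, was lower, at 9.34 and 7.82, as was the kinase gene Hipk2, at 9.49 and 7.98. These were 4.17% of the 24 higher and 8.33% lower. In the planar polarity branch 1 of 22 genes was higher and 1 lower (4.55% each), near the shares of all genes. The lower one, Daam1, a formin downstream of Dishevelled, was at 8.69 and 6.56.

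Of 43 reported target genes outside the members, 7 were at least 2-fold higher (16.3%) and 3 lower (6.98%). The shares of all genes were 5.09% and 3.64%. Of all 50 measured targets, members included, the same 7 were higher and 3 lower. The list was chosen with earlier results of these data known, so its shares cannot be read as a property of beta-catenin targets. Mmp7, a protease gene, went from 4.48, within the background range, to 19.68, near the end of the scale, so that its difference is not a measured size. Id2, an inhibitor of differentiation factors, went from 8.29 to 17.07, also over 16, and the cyclin D1 gene Ccnd1 was higher by 4.33. Vegfa, Met, Ephb2 and Birc5 were higher by 2.28, 2.15, 1.09 and 1.05. Snai2, a zinc finger repressor of basal keratinocytes, was at 14.25 and 9.63, lower by 4.63, Tiam1 was lower by 2.39 and Jun by 2.10. These genes answer to many other pathways, and which of them beta-catenin drives in these cells was not tested.

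**Figure D4:**
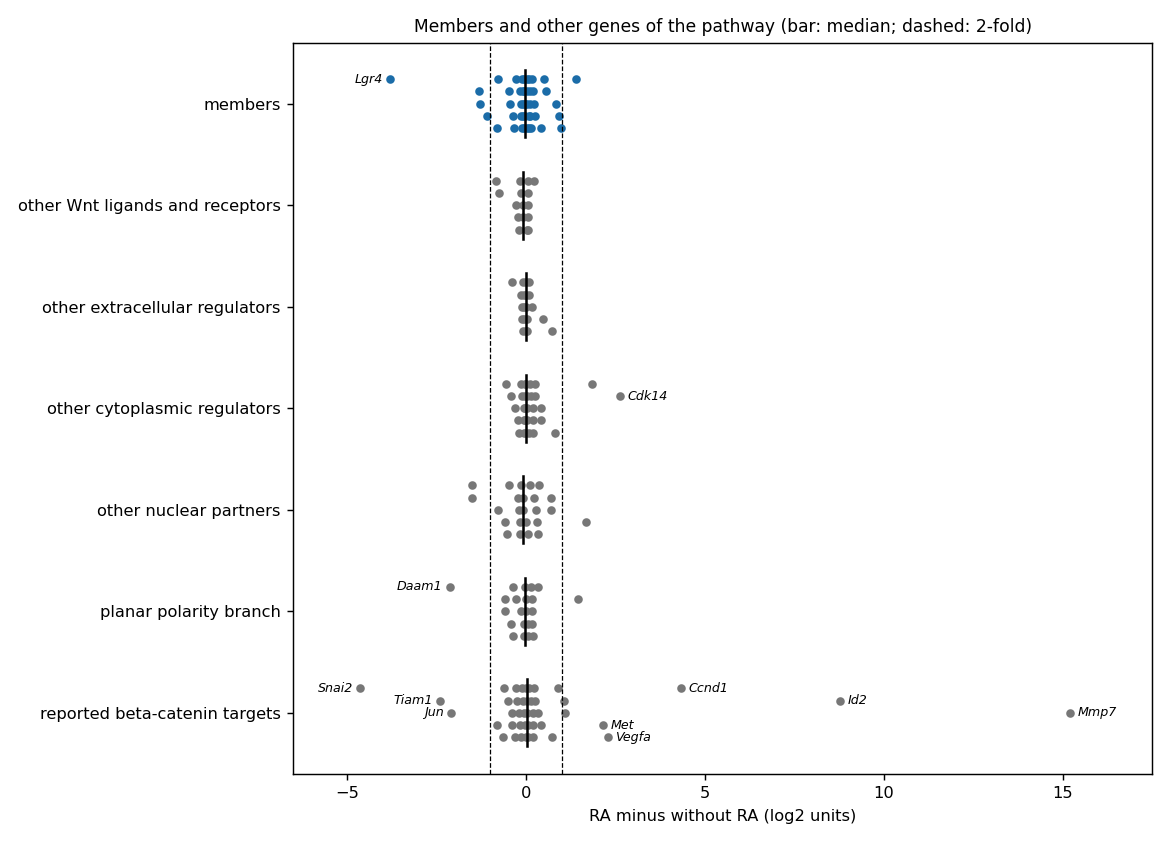
Difference (RA minus without RA, log2 units) of each Wnt gene and of each other gene of the pathway, 1 point per gene and 1 row per list, with a bar at the list's median. Members sit in the top row, genes 4-fold or more apart are named, and the row of reported targets reaches from -4.63 (Snai2) to 15.20 (Mmp7).

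Of 10 measured keratinocyte markers 8 lay above the brightest background probe set on both arrays, and 5 were at least 2-fold lower with RA. Krt1 and Krt10, keratins of the suprabasal layers, went from 18.98 and 17.59 to 4.78 and 5.94, the RA values being within the background range and the others over 16, so these differences are not measured sizes. Krt14, a basal keratin, went from 19.93, the highest value of the scale, to 12.25, and Sfn and Perp were lower by 3.84 and 3.24. Krt15, another basal keratin, was at 19.60 and 19.65, close to that end of the scale, where a change may not show. Cdh1, the gene of E-cadherin, was at 15.09 and 15.91. Itga6, Cdh3 and Itgb4 differed by -0.28, -0.26 and -0.63, short of 2-fold. The mean signal of the 10 was 15.64 without RA and 11.55 with RA, and it includes the Krt1 and Krt10 values. Of 13 hair follicle markers 2 were at least 2-fold higher, beside 5.09% of all genes, and 0 lower, beside 3.64%. The 2 were Krt79 and Krt75, higher by 7.97 and 5.88. However, 7 of the 13 were below 0, the median difference was -0.026, and 10 lay within the background range on both arrays. The mean signal of the 13, which includes Krt79 and Krt75, was 4.78 without RA and 5.69 with RA. Shh was at 3.31 and 3.34. Of 8 immune markers, Cd68 alone was at least 2-fold higher (12.5%, beside 5.09% of all genes), by 5.89. The median difference of the 8 was 0.0042, with a mean signal of 3.77 and 4.59, and Ptprc stayed under 3.6. The 12 fibroblast markers had a mean signal of 4.05 and 3.89, with Col1a1, Dcn and Pdgfra all under 4 on both arrays and Col3a1 lower by 2.13. For 8 melanocyte and 7 endothelial markers the means were 3.89 and 3.79 and 4.11 and 3.92, with 0 and 1 genes of 2-fold difference. The 1 endothelial gene, Tek, was lower by 1.33 (14.3% of the 7, beside 3.64% of all genes). Fewer cells of a type and less RNA per cell cannot be told apart in such bulk RNA, and the part of these shifts in the Wnt gene differences was not tested.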

How the data were processed

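Total RNA was labelled with biotin for whole-transcript GeneChip arrays, per the labels' protocols. The authors deposited log2 signals of 70580 probe sets on each array. The submitters' processing notes name RMA (background correction, normalization and probe summary) and the Transcriptome Analysis Console. The log2 base was read from the values, which end at 19.93, the log2 of 1000000, on both arrays. As 963 values without RA and 670 with RA exceed 16, the scale was stretched in a step not given in the sources used here. A fold holds on the deposited scale only. The genome build of the array is likewise not given in the sources used here. Depth does not apply to arrays, and their number, 1 per group, limits the precision.

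Differences were computed with Python 3.11.15, numpy 2.4.6, pandas 2.3.3 and statsmodels 0.14.6, with no filter on low values and no pseudocount. Of the probe sets 23446 had 1 symbol and 505 several, which were left out. A gene counted as higher or lower at 1 log2 unit. No test was run, with 1 array per group. All members are named, and of the other pathway lists genes at least 2 log2 units apart plus at most 4 more per list. Members and lists were chosen with earlier results of these data known. The counting step was tested on simulated data. Alternatives were 3 scalings, averaged probe sets per gene, 2 treatments of low values, limits of 1.5-fold or 4-fold, the members' mean, and 1 filter added after the data were seen.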

Additional observations from a re-analysis of the deposited data

How the results depend on the processing

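With 1 array per group, no replicate could be left out and replicate numbers pair nothing, and no paired analysis was possible because a single array stands for either treatment. Across the 7 settings that give them, Lgr4 ranged from -3.80 to -3.54 and Wnt10a was never below 1.33, and Wnt16 and Fzd1, in 6 settings each, from -1.09 to -1.02 and from -1.30 to -1.20. Fzd6 came to -0.92 after lowess and passed 2-fold elsewhere. The count of members at least 2-fold higher was 1 as deposited. After centring each array it was 2, beside 5.36% of all genes, which added Gsk3b (1.04). After a further quantile normalization it was 2, beside 5.41%, which added Ctnnb1 (1.11). After lowess it was 4, beside 6.56%, which added Gsk3b (1.29), Lrp5 (1.02) and Ctnnb1 (1.20). The cause was not tested. At 1.5-fold 4 members were higher and 6 lower, and 16 other pathway genes higher and 14 lower, beside 9.03% and 8.03% of all genes. At 4-fold 0 members were higher and 1 lower, Lgr4, and 6 other pathway genes higher and 4 lower, beside 1.97% and 1.29%. With a filter chosen after seeing the data, a mean above the brightest background probe set, 15 members were left, with 1 higher and 2 lower, since Fzd1 and Wnt16 drop out, beside 12.5% and 9.38% of the genes left. Of all genes past 2-fold, 58.3% were higher as deposited and 69.3% after lowess. The median of the members stayed between -0.11 (as the mean) and 0.049. For members within the background range a difference may not show.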
